A study of Mus musculus with 96 samples.

Results

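Trh is the gene of thyrotropin-releasing hormone. It is 1 of 23284 gene rows counted in 48 single mouse embryonic stem (ES) cells, and it was chosen by its wide spread over these cells. Since it was selected on its reads and its variance, also in cells with little Gata6, its level and spread are given below as a description, with no test. Its members are the row Trh in all 48 cells, and in the 35 cells with Gata6 under 20 CPM (reads of a gene scaled by the reads of its cell). Gata6 is a transcription factor that directs cells to primitive endoderm, an extraembryonic tissue of the early embryo.

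All cells are J1 ES cells, a male mouse line, grown without feeder cells in medium with fetal bovine serum and leukaemia inhibitory factor (LIF). There is 1 group, serum ES cells, with no other condition, genotype or time. Each cell was captured on a microfluidic chip, and the 2 sequencing lanes of each amplified library make 96 samples. Nothing in the labels assigns cells to different cultures, so they are not replicates of a condition, and the values below describe these cells.

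Thyrotropin-releasing hormone is a peptide of 3 amino acids, known best as the hypothalamic signal that makes the pituitary release thyrotropin. It is cut from a precursor protein by prohormone convertases at pairs of basic residues, trimmed by a carboxypeptidase, cyclised at its first residue by glutaminyl cyclase and amidated at its last by Pam. It acts on G protein-coupled receptors and is inactivated outside cells by Trhde. Transcription of Trh in the hypothalamus is raised by cAMP signalling through CREB and by leptin through STAT3, and is held down by thyroid hormone through its nuclear receptors.

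The coding sequence shows what a read of Trh stands for, so the hormone units are printed. In the GENCODE M21 transcript (1384 bases, with 256 codons before the stop) a script found 5 in-frame units, from codon 75 to codon 208. Capitals mark the codons of the hormone core, glutamine, histidine, proline and the glycine that is used for amidation, and lower case marks the basic residues on either side.
Unit 1: aaacgcCAGCATCCGGGCaaaagg
Unit 2: aaacgaCAGCACCCTGGCcgacgt
Unit 3: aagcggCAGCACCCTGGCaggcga
Unit 4: aagaggCAGCATCCAGGCcggagg
Unit 5: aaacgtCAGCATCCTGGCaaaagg
The 5 units code for the same core with partly different codons, and units 2 and 3 share their core bases. A read count per gene cannot show whether the precursor was made or cut.

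The 250 bases before the start of transcription are shown because the regulators named above act there. They are chr6:92244651-92244900 of GRCm38.p6, on the minus strand, from RefSeq. Capitals mark TGACCTCA, known as site 4 of this promoter, and the TATA box core TATAA.
Trh upstream: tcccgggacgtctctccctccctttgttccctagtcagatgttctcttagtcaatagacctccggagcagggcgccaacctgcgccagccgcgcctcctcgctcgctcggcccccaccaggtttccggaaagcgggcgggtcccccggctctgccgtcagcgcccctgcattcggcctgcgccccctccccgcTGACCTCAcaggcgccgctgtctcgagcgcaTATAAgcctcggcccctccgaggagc
TGACCTCA began 57 bases before the start, and it was found on either strand in 1.95% of 32536 upstream windows of the same length. The nuclear receptor element AGGTCA had 1 match, on the opposite strand and within TGACCTCA (14.0% of windows). TATAA began 26 bases before the start (22.7% of windows), and the GC box GGGCGG 117 bases before it (33.0%). The full cAMP response element TGACGTCA (1.56% of windows) and TTCNNNGAA, the letters of a STAT-type site (7.04%), were not among these letters on either strand. These matches describe letters only. The deposited counts were made on the build mm9, and no coordinates were carried between builds.

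The cells had 4408953 to 9767245 reads in genes (median 7054853), and 8039 to 10291 genes with a read. Reads carried no molecular identifiers, so an interval on the level in 1 cell covers the counting error of reads only. An interval or limit on a share of cells covers only the drawing of cells, taken as independent draws. Markers of naive pluripotency, an early form of pluripotency, were detected in both sets of cells (8 of 8 markers in each). Their summed level was 417 to 5614 CPM in the 35 cells with little Gata6 and 180 to 1538 CPM in the other 13. The 8 primitive endoderm markers summed to 2.38 to 131 CPM in the 35 cells, where Sox17 and Sox7 were not detected, and to 2414 to 13736 CPM in the 13. Gata6 itself reached at most 1.11 CPM below the limit and began at 63.7 CPM above it. Among markers of other cells, 3 Zscan4 genes of the 2-cell-like state had 0 reads. The 4 trophectoderm markers summed to a median of 0 CPM and at most 121 CPM in the 35 cells, where 2 of them were detected and Cdx2 had 0 reads, and to at most 15.7 CPM in the 13. The 5 fibroblast markers summed to at most 35.9 CPM in any cell, with 3 detected in the 35 cells and 3 in the 13, and the 4 neuroectoderm markers to at most 6.78 CPM, with 2 detected in the 35 cells and 0 in the 13.

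The lanes gave Trh counts that differed by no more than counting error. Lanes of a cell are repeat runs of 1 library, so they show counting error alone. In the cell with the most Trh, cell 47, the lanes gave 9293 and 9387 reads. In cell 29 they gave 1599 and 1571, and in cell 11, with little Trh, 32 and 43. By an exact two-sided binomial test on lane totals, 0 of the 45 cells with a Trh read differed between lanes after Benjamini-Hochberg adjustment (smallest adjusted p = 0.339), and 2 had an unadjusted p under 0.05. Every cell was run on both lanes and the lanes were summed, so this test bears on counting error only. It says nothing of capture or amplification, which the lanes of a library share.

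Over all 48 cells Trh ranged from 0 to 2780 CPM, with a median of 90.8 CPM. The mean was 236 ± 461 CPM (SD, n = 48), so the spread was larger than the mean. The 76918 Trh reads made up 0.0225% of all reads, and 24.3% of them came from cell 47 alone. The 5 highest cells held 55.1% of the summed CPM. At a fixed depth of 4408953 reads and a minimum of 5 reads, Trh was detected in 33 of 48 cells (68.8%, exact Clopper-Pearson 95% interval 53.7% to 81.3%). A minimum of 1 read gave 43 cells, since 10 cells had 1 to 4 reads at that depth, and a minimum of 20 reads gave 32.

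The cells fell on either side of a gap. There were 16 cells from 0 to 2.02 CPM, with at most 14 reads each, and 32 cells from 10.6 to 2780 CPM, with at least 75 reads each. The step between them, 5.23-fold, was the widest between neighbouring cells on the log2(CPM + 1) scale (1.94, where the next widest was 1.06). It was also wider than counting error: the upper 95% limit of the highest cell below was 3.39 CPM, and the lower limit of the lowest cell above was 8.76 CPM. Cells 3, 10 and 23 had no Trh read, and a floor of 3 reads puts them under 0.547, 0.272 and 0.364 CPM. Above the gap the levels formed a wide slope rather than 1 level: 5 cells lay between 5 and 50 CPM, 4 between 50 and 100, 7 between 100 and 200, 11 between 200 and 500, and 5 above 500 CPM.

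In the 35 cells with Gata6 under 20 CPM, Trh ranged from 0 to 2780 CPM with a median of 91.4 CPM and quartiles of 6.28 and 255 CPM. Below the gap lay 9 of these cells and above it 26, and the gap was the same one. It stood out less here: on the log2(CPM + 1) scale it was 1.94, where the next widest was 1.34. The 26 cells had a median of 195 CPM. Cells 47 (2780 CPM), 44 (1446 CPM) and 29 (572 CPM) were the highest, and the middle of the range was filled: cells 16, 11, 43, 21 and 12 had 10.6, 12.3, 26.8, 32.0 and 38.0 CPM. Without cell 47 the mean fell from 247 to 173 CPM. Low and high cells occurred side by side among cells whose summed naive markers all reached 417 CPM or more. Single markers varied: over these cells Esrrb ranged from 0.165 to 617 CPM and Dppa3 from 0 to 1224 CPM.

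The 13 cells with more Gata6 were divided more sharply. Trh stood at 0 CPM in cell 3, 0.139 in cell 25, 0.166 in cell 22, 0.250 in cell 13, 0.307 in cell 38, 0.771 in cell 33 and 1.09 in cell 40. It stood at 111 CPM in cell 2, 304 in cell 27, 375 in cell 32, 431 in cell 6, 501 in cell 4 and 938 in cell 41. No cell of this set lay in between, a step of 102-fold, and cell 41 was the cell with the most Trh after cells 47 and 44. Trh was detected at fixed depth in 6 of 13 cells (46.2%, 95% interval 19.2% to 74.9%), against 27 of 35 (77.1%, 59.9% to 89.6%) in the cells with little Gata6. The intervals overlap, and with no separate cultures named there is nothing to compare the sets over, so no test was made.

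Within the 13 cells Trh was higher where Gata6 was lower. The 5 cells with the least Gata6, from 63.7 to 237 CPM, all had Trh of 111 CPM or more, and the 5 with the most, from 392 to 808 CPM, had 0.771 CPM or less. Pou5f1 (Oct4), the central pluripotency factor, was at 5.71 CPM or less in those 5 cells with the most Gata6. The Spearman correlation with Trh over the 13 cells was -0.76 for Gata6, 0.72 for Pou5f1, 0.47 for Nanog, 0.46 for Esrrb, 0.43 for Zfp42 (Rex1) and 0.18 for Dppa3 (Stella), a description over cells. The endoderm genes Dab2 and Col4a1 stood at -0.37 and -0.24, weaker than Gata6, and Klhl13 stood at 0.63. Exceptions stood on both sides: cell 32 had 375 CPM of Trh with 0.407 CPM of Pou5f1, and cells 13 and 40 had at most 1.09 CPM of Trh with 26.7 and 43.0 CPM of Pou5f1. Genes detected per cell moved with Trh here too (0.52); its part in these values was not tested.

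**Figure D1:**
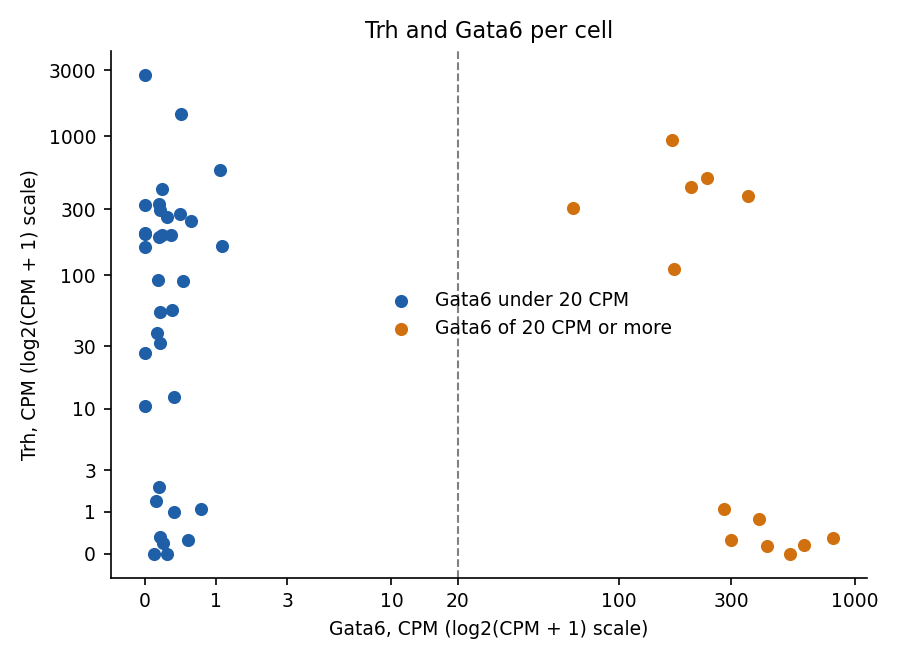
Trh against Gata6 per cell, both in CPM on log2(CPM + 1) scales; points are cells and the dashed line is the limit of 20 CPM Gata6. Trh spans 0 to 2780 CPM in the 35 cells to the left, and the 13 cells to the right lie either at 1.09 CPM or less or at 111 CPM or more.

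The spread of Trh was among the widest of any gene at its mean. Over the 35 cells its variance on the log2(CPM + 1) scale was 11.2, where the trend fitted over the 11454 genes that averaged 10 or more reads per cell gave 3.29. By variance above that trend it ranked 2, after Klhl13, an adaptor of a ubiquitin ligase (11.0, trend 1.65), and before Eif2s3y, a Y-linked translation factor gene (10.9, trend 3.18). Over all 48 cells it ranked 8 of 11746 genes (13.1, trend 4.13). Trh was chosen for this measure, so these ranks describe it and carry no test. Few genes had a like shape: besides Trh, 5 genes (Arhgap44, Cdr2l, Dpysl2, Edem1 and Eif2s3y) had at least 9 of the 35 cells under 5 CPM and at least 17 at 100 CPM or more, as Trh had, a rule set after its values were seen. Their highest cells reached 354 to 1075 CPM, below the 2780 CPM of Trh.

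**Figure D2:**
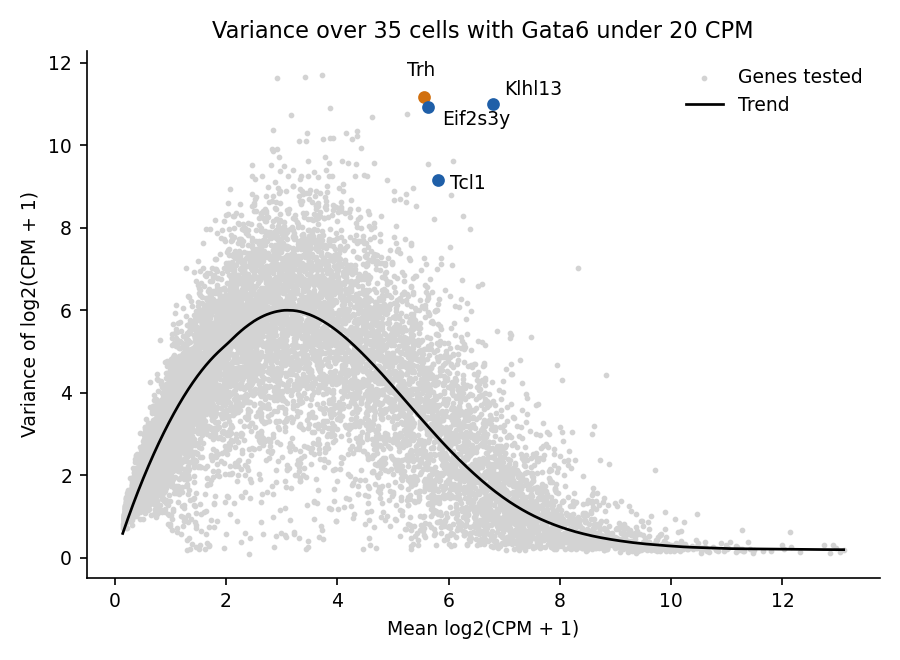
Variance (y axis) against mean (x axis) of log2(CPM + 1) over the 35 cells with Gata6 under 20 CPM; grey points are 11454 genes, the line is scran's trend, and 4 genes are named. Trh, in orange, has a variance of 11.2 where the trend gives 3.29.

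Which genes followed Trh was asked over the 35 cells, by Spearman correlation of CPM with all 11453 other genes. The cells share 1 culture condition and 1 chip protocol, both genes of a pair are read from the same library, and no p-value is given. The correlations had a median of -0.01 and an SD of 0.173, with 98% of genes between -0.41 and 0.38. There were 7 genes (0.0611%) at 0.5 or more and 18 (0.157%) at -0.5 or less. The 7 became 4 with library size alone and 19 with total reads and genes detected held constant. The same count over every gene tested had a median of 19 genes at 0.5 or more, and 98.3% of genes had more such partners than Trh. The closest partner of Trh stood at 0.60, where the closest partner of a gene stood at a median of 0.63. Of the 25 genes with the most variance above the trend, Trh among them, the other 24 all had more partners at 0.5 or more than Trh. On the negative side Trh was not low: its 18 genes at -0.5 or less stood above the median of 15, 32.5% of genes had more, and of the other 24 variable genes 13 had more and 10 fewer. Partners of other genes were counted in this setting only.

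**Figure D3:**
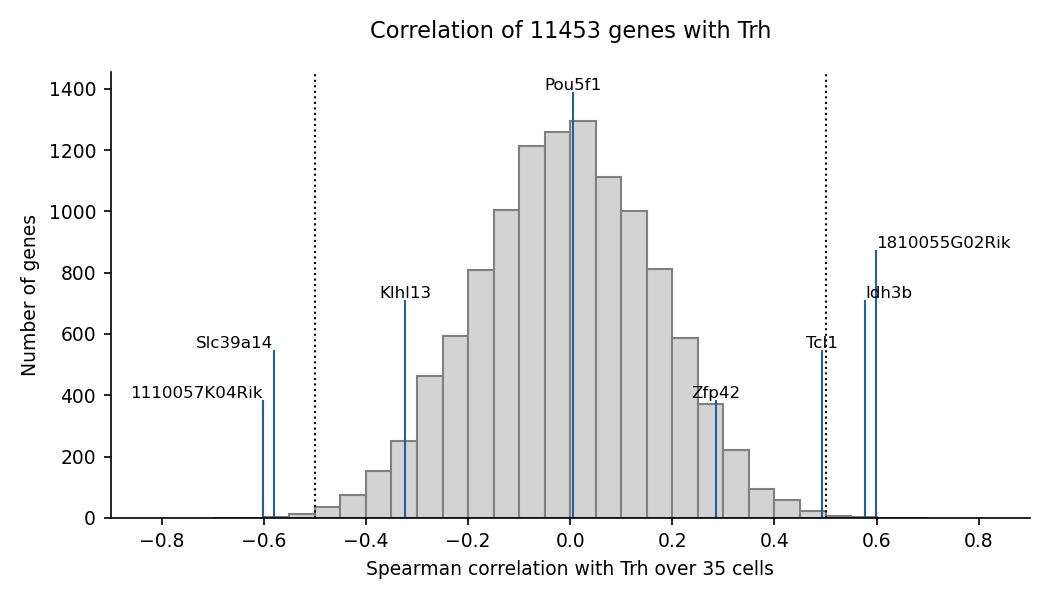
Number of genes (y axis) by Spearman correlation with Trh (x axis) over the 35 cells with Gata6 under 20 CPM; blue lines place 8 named genes, and dotted lines stand at -0.5 and 0.5. Of 11453 genes, 7 lie at 0.5 or more and 18 at -0.5 or less; Pou5f1 lies at 0.01.

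The 10 genes with the highest correlation were 1810055G02Rik (0.60), Idh3b (0.58), Kdm6b (0.54), Ubr2 (0.52), Wdyhv1 (0.51), Chchd4 (0.51), Josd1 (0.50), Lefty2 (0.50), Rexo4 (0.50) and 6720463M24Rik (0.50), the gene now called Bora. Idh3b encodes a subunit of the mitochondrial isocitrate dehydrogenase. It ranged from 0.185 to 410 CPM with a median of 124 CPM, and stood at 0.57 with total reads and genes detected held constant. Kdm6b, which removes methyl groups from lysine 27 of histone H3, ranged from 5.48 to 107 CPM and was detected in 35 of 35 cells. Ubr2 is a ubiquitin ligase that reads the first residue of proteins, and Wdyhv1 deamidates glutamine at that position. Chchd4 imports proteins into the mitochondrial intermembrane space and had 19.3 to 619 CPM. Lefty2, a secreted inhibitor of Nodal, had a median of 1.06 CPM and was detected in 16 of 35 cells. Across the 13 other settings run, the 10 genes stayed positive, and 1810055G02Rik (0.54 to 0.62) and Kdm6b (0.51 to 0.57) stayed at 0.5 or more in each. A Gata6 limit of 5 CPM selects the same 35 cells, and changed filters on mean reads leave the correlation of a gene as it is. Values in those settings repeat the main ones.

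The 10 lowest were 1110057K04Rik (-0.60), now called Ldah, a hydrolase of lipid droplets, Slc39a14 (-0.58), a zinc and iron importer, Traf4 (-0.57), Sgms2 (-0.55), Tpmt (-0.55), Katnal2 (-0.54), Vgf (-0.53), Tmed8 (-0.53), Hps4 (-0.53) and Ctnna1 (-0.53). Ctnna1, the alpha-catenin that ties cadherins to actin, had 17.9 to 1993 CPM and was detected in 35 of 35 cells. Slc39a14 had 0 to 279 CPM with a median of 5.18 CPM. Sgms2, Katnal2 and Vgf had a median of 0 CPM and were detected in 4, 6 and 3 of 35 cells. Their correlations were taken at full depth, so cells with fewer reads than the detection minimum also enter them. With Pearson correlation at a pseudocount of 10 CPM they stood at -0.23, -0.24 and -0.33. In each of the 13 other settings, those that repeat the main values included, 1110057K04Rik, Slc39a14, Tpmt and Ctnna1 stayed at -0.5 or less. Trh itself correlated with total reads at -0.37 and with genes detected at -0.16 over the 35 cells; with both held constant, 1810055G02Rik stood at 0.56 and 1110057K04Rik at -0.56, and 4 of the 10 highest and 2 of the 10 lowest remained in their 10.

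**Figure D4:**
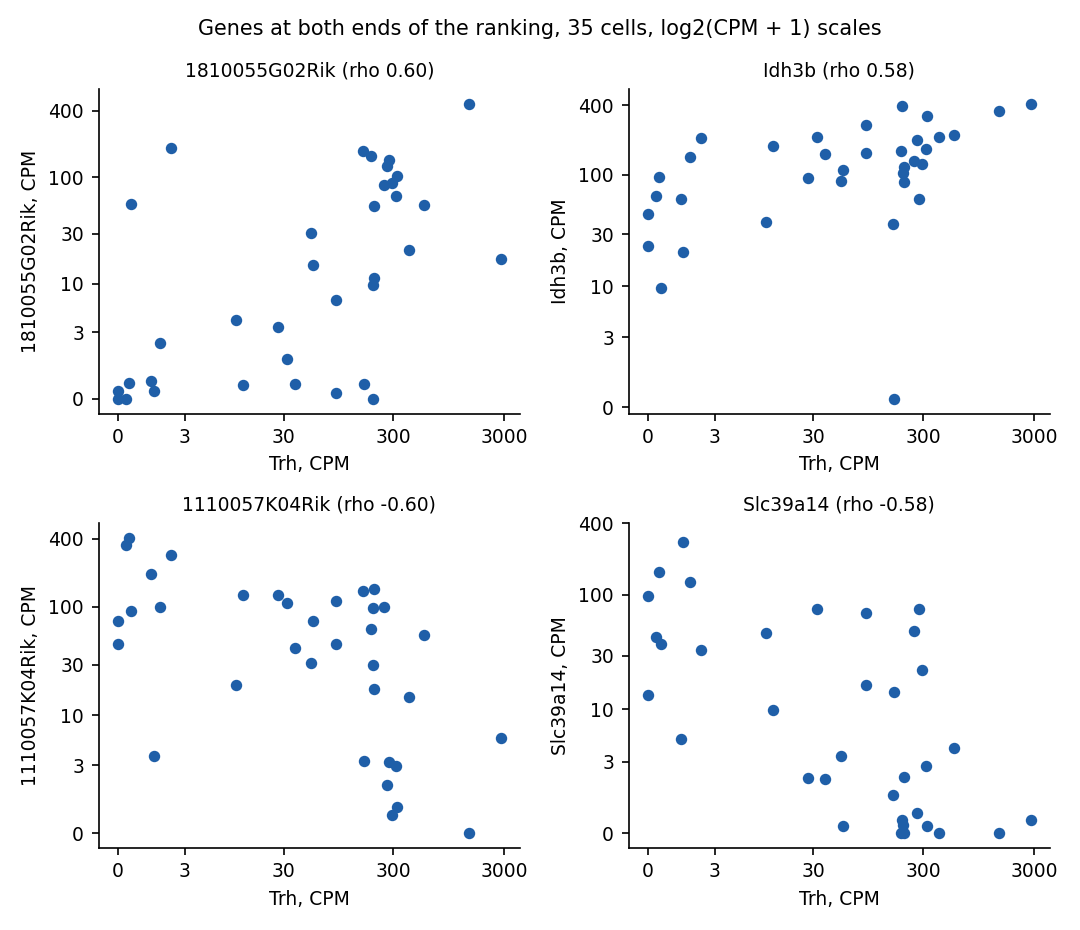
CPM of 4 genes (y axes) against Trh (x axes) over the 35 cells with Gata6 under 20 CPM, log2(CPM + 1) scales; points are cells, and the panels are the first 2 genes at each end of the ranking. The correlations are 0.60, 0.58, -0.60 and -0.58, and each panel holds cells with high and low values at nearly the same Trh level.

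Correlations with most of the main pluripotency genes were low in these 35 cells. Trh stood at 0.01 with Pou5f1, -0.01 with Nanog, 0.11 with Esrrb, 0.11 with Dppa3 and -0.16 with Klf4. Zfp42 stood at 0.28 and Tcl1, a cofactor of AKT that marks naive cells, at 0.49. Tcl1 ranged from 0 to 625 CPM and was the highest of 18 naive pluripotency genes, above the 99th percentile of all genes (0.38). The 18 genes had a median of 0.11, with 13 above 0 and 0 at 0.5 or more. Of 16 core pluripotency genes the median was 0.06, with 0 at 0.5 or more. The signs for Pou5f1, Nanog, Esrrb and Dppa3 changed in at least 1 of the 13 other settings; those for Zfp42, Tcl1, Klf4 and Klhl13 did not. Klhl13 stood at -0.32, against 0.63 in the 13 cells with more Gata6, a difference that was not tested: the highest Trh cells, 47 and 44, had 0.893 and 0 CPM of it, but cell 7 had 1116 CPM beside 294 CPM of Trh.

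The median correlation with Trh was 0.02 for 20 G1-S genes and 0.04 for 20 G2-M genes of the cell cycle, -0.02 for 11 LIF-STAT3 targets, 0.08 for 12 FGF-ERK targets and 0.03 for 7 cAMP-CREB targets (7 of 7 above 0), beside -0.01 over all genes, of which 48.7% were above 0. The 10 primed epiblast genes tested had -0.05, the 6 primitive endoderm genes tested 0.01 and the 7 trophectoderm genes tested -0.15. The 15 p53 targets had -0.16, with 12 of 15 below 0, where 51.3% of all genes were. None of these lists had a member at 0.5 or more, or at -0.5 or less. Over all genes only 0.0611% and 0.157% passed these limits, so 0 in lists of this size says little.

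The other genes of the hormone's own pathway were mostly silent or detected in part of the cells. Of the receptors, Trhr and Trhr2 had 0 reads in all 48 cells. By an approximate one-sided limit, not the exact interval used above, 0 of 48 allows a share of cells of up to 6.25%. Trhde, the enzyme that inactivates the hormone, had 0 reads too. Of the 13 processing genes, Pcsk1 and Pcsk2, the convertases that cut the precursor in neurons, were detected in 1 and 2 of 48 cells. The ubiquitous convertase Furin was detected in 28 cells, Pcsk6 in 18, the amidating enzyme Pam in 25, the carboxypeptidases Cpd and Cpe in 22 and 7, and the glutaminyl cyclases Qpct and Qpctl in 7 and 13. Their correlations with Trh in the 35 cells ran from -0.22 (Pam) to 0.10 (Qpctl), with 2 of the 8 tested above 0 and 6 below; the signs for Cpd, Qpct and Qpctl changed in some settings. Pgpep1, a peptidase that removes the cyclised first residue, was detected in 40 cells and stood at 0.01, a sign that also changed.

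Next come genes that act downstream of the receptors or on the Trh promoter. Among 7 tested genes of receptor signalling the lowest was Gna11, a G protein subunit, at -0.45, and the median was -0.05. The thyroid hormone receptor genes Thra and Thrb were detected in 8 and 1 of 48 cells, and thyrotropin beta, Tshb, had 0 reads. Of the regulators, Creb1 (0.08), Atf1 (0.15), Stat3 (0.02) and Sp1 (0.02) were detected in 40, 47, 43 and 48 cells, and Klf10 stood highest at 0.25; of these 5, only Creb1 and Klf10 kept their sign in each setting. Of 12 genes of regulated secretion, 7 had a read in some cell, while Chgb, Scg2, Scg3, Cadps and Syt1 had 0 reads. Rab27a was detected in 34 of 48 cells, Stx1a in 9, Chga in 8, Rab3a in 7 and Snap25 in 2. Of 41 tested genes of the 7 pathway lists, 0 reached 0.5 and 1, Vgf, reached -0.5 or less, with a median of -0.02. Over all genes 0.0611% and 0.157% passed these limits, so such counts among 41 genes say little. Vgf was detected in 3 of 48 cells. Its correlation was taken at full depth, so cells with fewer reads than the detection minimum also enter it. It stayed at -0.5 or less in 5 of the 8 other settings run for it, some of which repeat the main value. It stood at -0.47 with total reads and genes detected held constant, and at -0.33 with Pearson correlation at a pseudocount of 10 CPM.

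Most other neuropeptide genes were not detected. Of 23 such genes, 12 had no read in any cell, among them Crh, Sst, Npy, Avp and Oxt, and 9 were detected in at least 1 cell at fixed depth. Only Nmb and Pomc had enough reads to be compared in the 35 cells; they were detected in 18 and 17 of 48 cells, and stood at 0.06 and -0.02 with Trh, signs that changed in some settings. Their highest cells reached 78.9 and 93.4 CPM.

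Spread in the pathway lists was tested with scran's one-sided variance test, Benjamini-Hochberg adjusted over all genes. The choice of Trh did not use these genes, but the lists were chosen with earlier results of these data known. Over 48 cells 239 of 11746 genes (2.03%) were called, and of 45 pathway genes tested 0 were, with 1 at an unadjusted p under 0.05. In the 35 cells 200 of 11454 genes (1.75%) were called, and 1 of 41 pathway genes was: Sp1, a general transcription factor that binds GC boxes, with a variance of 2.17 where the trend gave 0.667 (scran, adjusted p = 2.82e-07). Sp1 ranged from 4.21 to 958 CPM there. The share called, 1 of 41, is near that over all genes. The p-values set a gene against the scatter of other genes around the trend and say nothing of other cells.

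Genes beside Trh on chromosome 6 were compared by their order in the RefSeq annotation of GRCm38.p6, in which no gene overlaps Trh. Of the 5 annotated genes on either side, Fgd5, Nr2c2, Mrps25, Zfyve20 (now Rbsn) and Prickle2 had a row in the count table, and Prickle2 had too few reads. Nr2c2, a nuclear receptor gene, stood at 0.16 with Trh, Mrps25 of the mitochondrial ribosome at 0.12 (below 0 in 3 of 13 settings) and Zfyve20 of endosomes at 0.17. Fgd5 stood at 0.41 but was detected in only 4 of the 35 cells. Mrps25 had 6.25 CPM or more in each of the 35 cells, among them the 9 with Trh at 2.02 CPM or less.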

How the data were processed

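Read counts per gene were deposited by the authors as 1 table of 23284 gene rows and 96 columns, not normalized. Per the submitters' processing notes the build was mm9 and the tools included featureCounts, Subread 1.4.5-p1 and STAR 2.3.1z12; annotation and strand setting are not given in the sources used here. Each column matched 1 sample by its description label. Lanes were summed per cell, and all 48 cells were used. CPM (reads scaled to the effective library size) came from edgeR 4.0.16 with its TMMwsp method. The trend of the variance of log2(CPM + 1) was that of scran 1.30.0 (modelGeneVar, R 4.3.3), for genes averaging 10 or more reads per cell, with a threshold of 0.05 for the adjusted p. On simulated counts for the fit over all cells, 85.5% of 200 genes with 4 times the dispersion, drawn among those averaging 200 or more reads, were called among 11288 genes, and 0.965% of unchanged genes.

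Named were the 10 genes at each end of the correlation with Trh, members of 7 pathway lists, 5 neighbours on each side, and fixed pluripotency genes. Detection used cells thinned to 4408953 reads, with 5 reads as the minimum. Intervals (exact binomial, exact Poisson) were computed with scipy 1.17.1. The members and the 21 gene lists were chosen with earlier results of these data known. Alternatives changed scaling, depth, lane, pseudocount, Gata6 limit, filter, correlation measure, covariates and cells left out.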

Additional observations from a re-analysis of the deposited data

How the results depend on the processing

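The median and mean level of Trh, the cells under 5 CPM (16 of 48, 9 of 35) and the cells with Trh detected stayed within 1.5 times of their values in every alternative run for them, among them the mean without cell 47, an alternative chosen after seeing the data. The number of genes with a correlation of 0.5 or more, 7, was 4 with library size alone, 4 with scran size factors, 11 on lane 2 alone, 13 with Pearson correlation at a pseudocount of 10 CPM and 19 given total count and genes detected; the cause was not tested. The number at -0.5 or less, 18, stayed within 1.5 times. Over the 20 first-ranked genes and their alternatives, 243 values were computed: 193 kept their side of 0.5, 43 fell under it, 7 rose past it and 0 changed sign. Among them are the Gata6 limit of 5 CPM, which selects the same 35 cells, and the changed filters on mean reads. Neither can change the correlation of a gene, so those values were fixed in advance and add nothing to the 193. With a pseudocount of 10 CPM, which compresses low values, the variance of Trh above the trend was 4.05 in place of 8.99 over all cells and 3.70 in place of 7.88 in the 35 cells, and its rank was 21 and 4; variable genes numbered 159 in place of 239, and 97 in place of 200. Pathway genes called stayed at 0 over all cells and at 1, Sp1, in the 35 cells under each alternative run. No paired analysis was possible because all cells form 1 group. Depth limits the values under about 1 CPM, which rest on fewer than 10 reads per cell.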

Other observations

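Of the 20 genes at the ends of the ranking, Chchd4 was the only one annotated on chromosome 6, the chromosome of Trh, with 11 protein-coding genes between them in the RefSeq order. It was singled out after its values were seen. Josd1, at 0.50 with Trh, stood at 0.37 with total reads and genes detected held constant, while Lefty2 stood at 0.54. Without the 2 cells farthest from the Trh median, Ubr2 stood at 0.60 and Tcl1 at 0.40.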
